A study of Mus musculus with 15 samples.

Results

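The genes described here are 10 genes of lipid carriage, efflux and storage: Apoe, Lpl, Abca1, Abcg1, Apoc1, Pltp, Plin2, Soat1, Nr1h3 and Mylip. They were chosen by name, as the rows whose gene symbol equalled one of these names, and all 10 were found among the 24421 genes of each of 3 count tables. The tables held bulk RNA sequencing of mouse microglia, the macrophages of brain tissue, which were isolated from forebrain after an ischemic stroke by sorting cells with intermediate CD45 and intermediate CD11b. The stroke was a 60 min occlusion of the middle cerebral artery followed by reperfusion, and sham surgery left out the occlusion. Mice were male and aged 8 to 24 weeks. The wild-type groups were C57BL/6J mice after sham surgery and on days 1, 6, 14 and 28 after stroke, with 1 library each. Igf1-Egfp transgenic mice, a reporter of the growth factor gene Igf1, gave 1 EGFP+ and 1 EGFP- library per day, on days 6 and 14. The Yy1 comparison, on day 6, had 3 libraries from Yy1flox/flox mice (floxed controls) and 3 from mice that also carried Cx3cr1-CreER (Yy1-deleted). Yy1 encodes a zinc finger transcription factor. The Cre recombinase was driven from Cx3cr1, a gene of microglia and other macrophages, and the floxed controls carried no Cre, so Cre and the deletion cannot be told apart. The number of mice per library and the schedule of Cre induction were not given in the sources used here.

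Microglia and macrophages that take up myelin and dead cells must either export the cholesterol they gain or store it. Export runs through the transporters ABCA1 and ABCG1 onto apolipoprotein E particles, while storage runs through sterol esterification and lipid droplets. Liver X receptors, nuclear receptors that sense oxysterols and pair with RXR, are known to raise transcription of several of these genes, including Abca1, Abcg1, Apoe, Lpl, Pltp and Mylip.

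Library totals, in M (1e+06 counts), spanned 16.8 to 52.6 in the time course table, which also holds the EGFP libraries of day 6, 23.1 to 24.6 for the EGFP libraries of day 14, kept in a table of their own, and 10.5 to 13.9 in the Yy1 table. As a check of the labelled cell type, the microglia markers P2ry12 and Tmem119 were detected in all of the wild-type and EGFP libraries. A library mixed with other cells would also pass this check, and both markers were lower on day 1 than in sham. The reporter label was checked with Igf1, which stood at 813 CPM (counts of the gene per 1e+06 counts of the library, scaled by TMM within a table) in EGFP+ and 49.5 CPM in EGFP- cells on day 6, and at 33.5 and 11.1 CPM on day 14. Yy1 itself stood at 61.6 ± 12.9 CPM in floxed controls and 33.3 ± 4.97 CPM in Yy1-deleted libraries (SD, n = 3), a log2 fold change of -0.88 with an adjusted p of 0.128 (edgeR's quasi-likelihood test), so the deletion was not called at the RNA level, although the groups did not overlap. Some libraries stood apart. The EGFP- library of day 6 held 10861 CPM over 7 neutrophil markers, against 150.03 CPM in the EGFP+ library of that day, and 4887 against 1509 CPM over 7 monocyte markers. The wild-type libraries of days 14 and 28 had a count at 11823 and 9886 genes, fewer than the 16009 to 17321 of sham, day 1 and day 6, and 9 endothelial and mural markers summed to 4819 CPM on day 14, 30.1 CPM on day 28 and 220 CPM in sham. In the table of the day 14 EGFP libraries Yy1 stood at 1.41 and 1.71 CPM, below every other library, and levels are not compared across tables by any test. In bulk samples, fewer cells of a type and less RNA per cell cannot be told apart.

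The promoters of Apoe, Plin2 and Abca1 are shown because Apoe and Plin2 fell in the Yy1-deleted libraries while Abca1 was not called. RefSeq promoter windows (GRCm38.p6, 300 bases) were at hand for 7 of the 10 genes, in 10 windows. The stretches below run 5′ to 3′ on the gene's strand and end at the base before the start of transcription, and capitals mark matches to the motifs searched on both strands.
Apoe, chr7:19699189-19699348, minus strand: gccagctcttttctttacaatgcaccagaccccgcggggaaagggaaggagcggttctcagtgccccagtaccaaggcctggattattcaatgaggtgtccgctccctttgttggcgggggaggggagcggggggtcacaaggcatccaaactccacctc
Plin2, chr4:86670060-86670299, minus strand: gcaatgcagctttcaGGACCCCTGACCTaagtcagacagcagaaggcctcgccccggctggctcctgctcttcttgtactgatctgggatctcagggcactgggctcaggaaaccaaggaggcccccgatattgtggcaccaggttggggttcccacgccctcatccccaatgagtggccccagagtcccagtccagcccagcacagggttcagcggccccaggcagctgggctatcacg
Abca1, chr4:53159896-53160055, minus strand: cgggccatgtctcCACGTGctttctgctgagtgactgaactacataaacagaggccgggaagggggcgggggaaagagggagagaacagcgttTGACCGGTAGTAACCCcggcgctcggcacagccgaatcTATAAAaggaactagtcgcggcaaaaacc
In Abca1, the capitals are an E-box (CACGTG) 147 bases before the start, a match to the DR4 repeat bound by liver X receptors 67 bases before it, and a TATA box (TATAAA) 29 bases before it. The DR4 pattern was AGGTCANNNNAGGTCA with up to 3 mismatches. The Abca1 match lay on the opposite strand, where it reads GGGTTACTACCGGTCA. In Plin2, the capitals are a match to the DR1 repeat bound by PPAR receptors, searched as AGGTCANAGGTCA with up to 2 mismatches, 225 bases before the start and read on the opposite strand as AGGTCAGGGGTCC. An E-box of Plin2 that crosses the start was left in lower case. The Apoe stretch held none of the motifs, and the only matches in the other Apoe windows were TATAAA before an internal start. The YY1 core AANATGGCG was in none of the 10 windows. Among 32851 promoter windows of the same length, 21.9% held the DR4 pattern, 3.86% the DR1 pattern, 7.15% the E-box, 13.6% TATAAA and 2.38% the YY1 core. These are matches of letters, not binding sites.

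Apoe (chromosome 7, 19696109 to 19699188, GRCm38) encodes apolipoprotein E, the main lipid carrier made in the brain. Its level was 130.3 CPM after sham surgery and 195, 6183, 3862 and 2513 CPM on days 1, 6, 14 and 28. The day 1 library stood 1.49-fold above sham (95% counting interval 1.45 to 1.54), and the day 6 library 47.5-fold (46.3 to 48.6). The gain lay between days 1 and 6, a log2 ratio of 4.98, and the day 28 library was still 19.3-fold above sham (18.8 to 19.8). Apoe took 0.0132% of all counts in sham and 0.651% on day 6. In reporter mice it stood at 3281 CPM in EGFP- and 18823 CPM in EGFP+ cells on day 6, 5.74-fold higher in the EGFP+ library (5.70 to 5.77). On day 14 it stood at 7564 and 22665 CPM, 3.00-fold higher (2.98 to 3.01), and reached 2.18% of all counts in the EGFP+ library. Both EGFP+ libraries were thus higher than their EGFP- partners. With 1 library per group these ratios have no replicate check. The intervals, exact conditional binomial ones, cover at most the counting error, and they treat each count as independent.

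Apoc1 (chromosome 7, 19689481 to 19692660), the apolipoprotein gene next to Apoe, was low throughout. It stood at 0.30 CPM after sham surgery and 0.93, 12.6 and 13.3 CPM on days 1, 6 and 14, and had 0 counts on day 28, which allows up to 0.132 CPM. It followed Apoe upward on day 6 but was not detected on day 28, when Apoe was still high. The day 28 library had a count at 9886 genes, against 16009 in sham, and the part of this in the 0 counts of Apoc1 was not tested. Between EGFP- and EGFP+ cells it stood at 10.3 and 24.7 CPM on day 6 and at 4.95 and 8.98 CPM on day 14.

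Lpl (chromosome 8, 68880491 to 68907448) encodes lipoprotein lipase, which frees fatty acids from triglyceride-rich particles. It peaked on day 1, earlier than Apoe: 38.3 CPM after sham surgery and 2001, 426, 464 and 207 CPM on days 1, 6, 14 and 28. The day 1 library stood 52.2-fold above sham (49.9 to 54.5), and day 6 stood 4.70-fold below day 1. From day 6 to day 28 Lpl held between 5.41-fold and 12.1-fold above sham. In EGFP- and EGFP+ cells Lpl stood at 182 and 1015 CPM on day 6, a 5.57-fold difference (5.42 to 5.71), and at 88.0 and 284 CPM on day 14, a 3.23-fold difference (3.08 to 3.39).

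The exporters differed far less between days than Apoe and Lpl. Abca1 (chromosome 4, 53030787 to 53159895) encodes the transporter that hands cholesterol and phospholipid to lipid-poor apolipoproteins. It stood at 1256 CPM after sham surgery and 2211, 1967, 1261 and 1024 CPM on days 1, 6, 14 and 28, so no time point was more than 1.76-fold above sham. Abcg1 (chromosome 17, 31057675 to 31117988), which loads formed lipoprotein particles, ranged from 125.8 CPM on day 28 to 298 CPM on day 6 around 200.01 CPM in sham. The reporter states differed more: on day 6 Abca1 stood at 1122 CPM in EGFP- and 3982 CPM in EGFP+ cells, and Abcg1 at 203 and 469.7 CPM. On day 14 the differences were smaller, with Abca1 at 396 and 558 CPM and Abcg1 at 162 and 260.4 CPM.

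Pltp (chromosome 2, 164839518 to 164857711) encodes phospholipid transfer protein, which moves phospholipid between lipoproteins. It stood at 10.5 CPM after sham surgery and 13.5, 74.2, 245 and 6.23 CPM on days 1, 6, 14 and 28. Its day 14 peak was gone on day 28, a log2 ratio of -5.09. The endothelial and mural markers were highest and lowest in the same libraries, at 4819 and 30.1 CPM, and their part in the Pltp values was not tested. Pltp overlaps Ctsa on the opposite strand, and whether the counting used strand was not given in the sources used here, so its reads may be shared with Ctsa. In reporter mice Pltp stood at 26.3 and 94.7 CPM in EGFP- and EGFP+ cells on day 6, where the endothelial and mural sum was 506 and 375 CPM. On day 14 it had 0 counts in the EGFP- library, which allows up to 0.118 CPM, and 104 CPM in the EGFP+ library, so the log2 ratio of 6.72 rests on the pseudocount of 1 CPM. The endothelial and mural sum moved the same way on that day, from 30.7 to 392 CPM, with 6 of 6 markers at the minimum past the size rule upward.

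Of the storage genes, Plin2 differed far more than Soat1 between the wild-type libraries. Plin2 (chromosome 4, 86648386 to 86670060) encodes the perilipin that coats lipid droplets. It stood at 15.5 CPM after sham surgery and 399, 244, 71.9 and 172 CPM on days 1, 6, 14 and 28. The day 1 library was 25.7-fold above sham (24.0 to 27.6), so Plin2 peaked with Lpl rather than with Apoe. In EGFP- and EGFP+ cells it stood at 374 and 1180.04 CPM on day 6 and at 66.2 and 180.3 CPM on day 14. Soat1 (chromosome 1, 156424525 to 156474331) encodes the enzyme that esterifies cholesterol for storage. It stood at 173 CPM after sham surgery and 288, 236, 108 and 99.2 CPM on days 1, 6, 14 and 28. It stood at 343 and 829 CPM in EGFP- and EGFP+ cells on day 6, and at 143 and 162 CPM on day 14.

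Nr1h3 (chromosome 2, 91184061 to 91202834), which encodes liver X receptor alpha, was low in every library. It stood between 0.79 CPM on day 28 and 3.37 CPM on day 14 in the wild-type libraries, at 8.07 and 2.86 CPM in EGFP- and EGFP+ cells on day 6, and at 0 counts and 0.36 CPM on day 14. Nr1h2, which encodes liver X receptor beta, stood between 42.0 and 109.8 CPM in the wild-type libraries. Mylip (chromosome 13, 45389742 to 45412022) encodes a ubiquitin ligase that limits the uptake of lipoproteins. It stood below sham in all 4 wild-type libraries after stroke: 437 CPM after sham surgery and 238, 265, 126 and 326 CPM on days 1, 6, 14 and 28. The day 14 library was 3.48-fold below sham. In reporter mice it stood at 190.9 and 297 CPM in EGFP- and EGFP+ cells on day 6 and at 145 and 157 CPM on day 14.

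**Figure D1:**
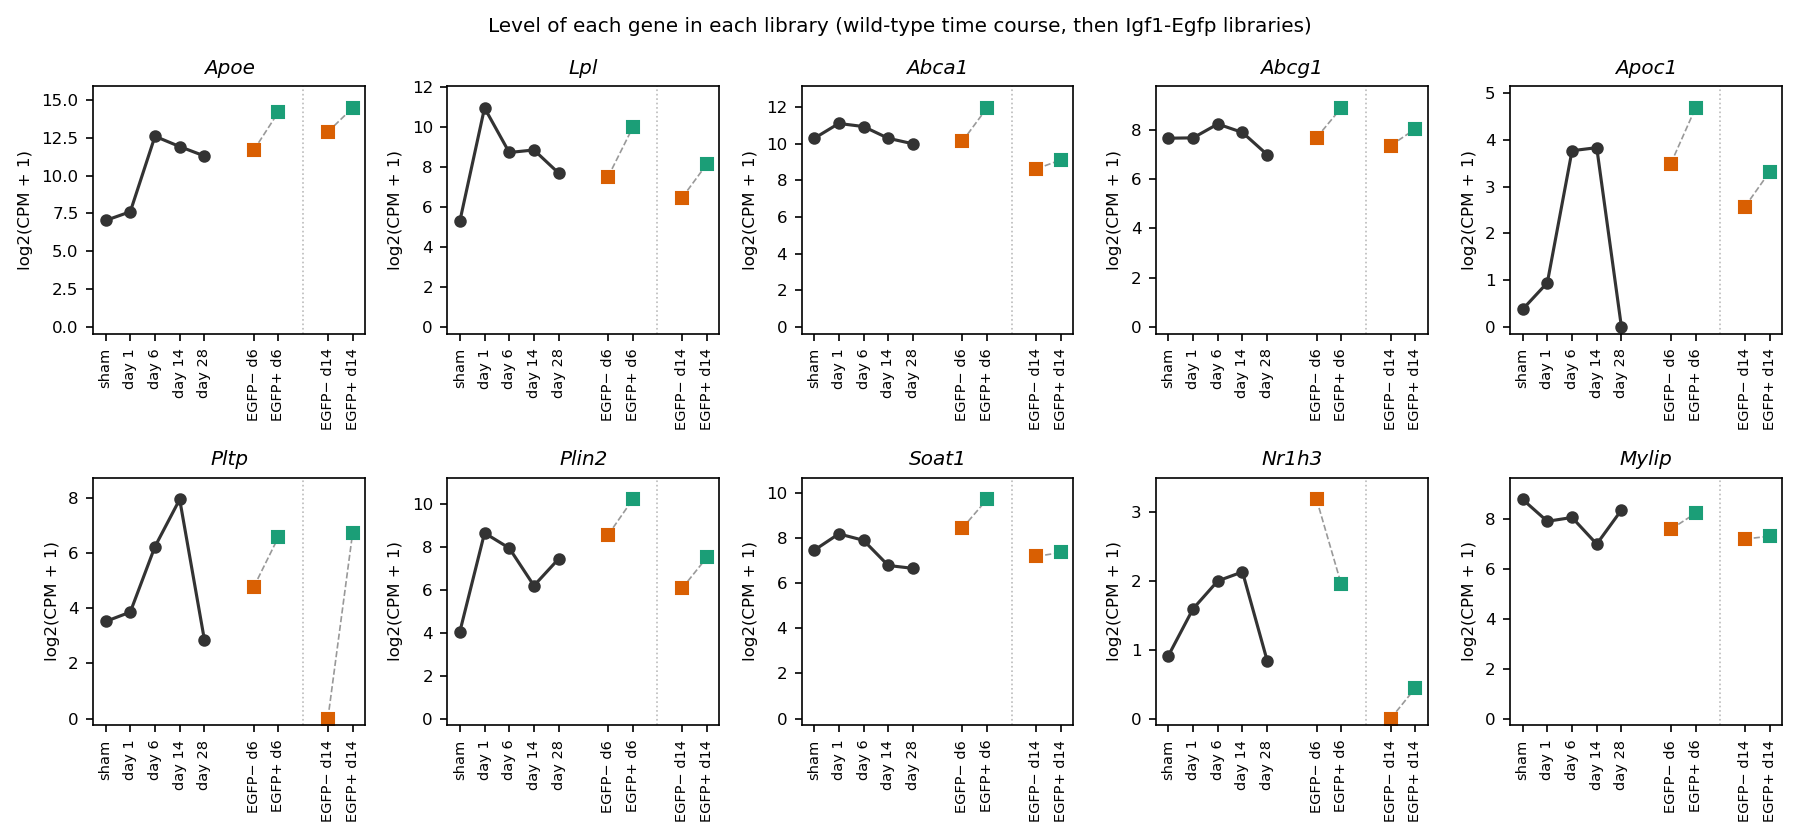
Level of each of the 10 genes, as log2(CPM + 1) on the y axis, in each library on the x axis: black circles joined by a line are the 5 wild-type libraries, orange squares EGFP- and green squares EGFP+ libraries, and the dotted line separates the day 14 EGFP table, which was scaled on its own. Lpl and Plin2 are highest of the wild-type libraries on day 1, at 2001 and 399 CPM, Apoe on day 6, at 6183 CPM, and Pltp on day 14, at 245 CPM.

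Per kilobase of exon, Apoe ranked behind Mylip and Abca1 in sham, at 60.9 CPM per kb against 135 and 121. On day 1 it ranked behind Abca1 (213), Lpl (191) and Plin2 (114) at 91.0 CPM per kb. In all of the other libraries, the 6 of the Yy1 table included, Apoe ranked first, at 875.5 to 10600.0 CPM per kb. Nr1h3 and Apoc1 were among the 3 lowest in every library.

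Because the wild-type days and the EGFP states had 1 library each, members were counted by a rule of size: an absolute log2 ratio of CPM plus 1 of at least 2 for days and of at least 1 for EGFP states, given a level of 20 CPM or more in at least 1 of the libraries compared. The ratio of CPM plus 1 understates the change of low genes. Day 1 against sham had 7 members at the minimum, of which Lpl and Plin2 were past the rule upward and 0 downward, against 5.59% and 2% of all genes at the minimum. Day 6 against sham had 4 of 8 higher (Apoe, Lpl, Pltp, Plin2) and 0 lower, against 6.25% and 0.0846%. Day 14 against sham had 4 of 8 higher, again Apoe, Lpl, Pltp and Plin2, and 0 lower, against 12.9% and 6.82%. Plin2 was close to the rule on day 14, at a log2 ratio of 2.14, and missed it at 1.91 with a pseudocount of 5 CPM. Day 28 against sham had 3 of 7 higher (Apoe, Lpl, Plin2) and 0 lower, against 11.1% and 15.2%. These comparisons share the sham library. The medians over members at the minimum were 0.73, 1.68, 1.19 and -0.29 on days 1, 6, 14 and 28, beside -0.00135, -0.09, -0.03 and 0.15 over all genes.

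Between neighbouring days, day 6 against day 1 had 2 of 8 members higher (Apoe and Pltp) and 1 lower (Lpl), against 2.25% and 1.6% of genes. Day 14 against day 6 had 0 of 8 in either direction, against 4.46% and 4.73%. Day 28 against day 14 had 0 of 8 higher and 1 lower (Pltp), against 14.6% and 22.6%.

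Between reporter states the rule was met at a smaller ratio, 1 in place of 2. EGFP+ against EGFP- cells on day 6 had 8 of 9 members higher, the exception being Mylip, and 0 lower, against 7.53% and 11.9% of genes. The median of those 9 was 1.66, beside -0.04 over all genes. Apoc1 missed the rule at 0.96 with a pseudocount of 5 CPM. On day 14, 4 of 8 members were higher (Apoe, Lpl, Pltp, Plin2) and 0 lower, against 11.2% and 10.9% of genes, with a median of 1.05 beside 0.03. Markers of other cells were also higher in that EGFP+ library: 4 of 4 neutrophil, 2 of 2 monocyte and 6 of 6 endothelial and mural markers at the minimum were past the rule, with median log2 ratios of 6.99, 4.65 and 4.32. The day 6 comparison rests on the EGFP- library that was rich in neutrophil and monocyte markers. With the wild-type day 6 library of the same table in its place, an alternative chosen after seeing the data, 5 of 9 members were higher and 0 lower, against 8.63% and 11.6% of genes. Those 5 were Apoe at 3.04-fold, Lpl at 2.39-fold, Abca1 at 2.02-fold, Plin2 at 4.83-fold and Soat1 at 3.52-fold. Pltp, at 1.28-fold, and Abcg1, at 1.57-fold, were not past the rule there. The wild-type library was not split by the reporter, and Igf1 stood at 231 CPM in it. Cell markers differed in this comparison too. At the minimum, 8 of 8 endothelial and mural markers were lower in EGFP+ cells, with sums of 375 against 2756 CPM. Of border-associated macrophage markers 5 of 5 were higher, and of microglia markers 7 of 10 were lower. The part of these cells was not tested.

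A single fit over the 4 EGFP libraries, with day as a term and 1 residual degree of freedom, set the reporter difference against a spread. It called 0 of 12842 genes in either direction by edgeR's quasi-likelihood test, 0%, with 193 genes at an unadjusted p under 0.05. RLE scaling and limma-voom also called 0, with 185 and 389 genes at an unadjusted p under 0.05. The log2 differences were 2.06 (SE 0.43) for Apoe, 2.09 (SE 0.37) for Lpl and 1.56 (SE 0.30) for Plin2, each with an adjusted p of 1 in edgeR. DESeq2 called 18 genes higher, 0.16% of 11263, and 13 lower. Apoe (adjusted p 0.00387), Lpl (adjusted p 0.00387) and Plin2 (adjusted p 0.0107) were among the 18. Day also holds the table, the sequencer (HiSeq on day 6, NovaSeq on day 14) and any difference in library making.

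**Figure D2:**
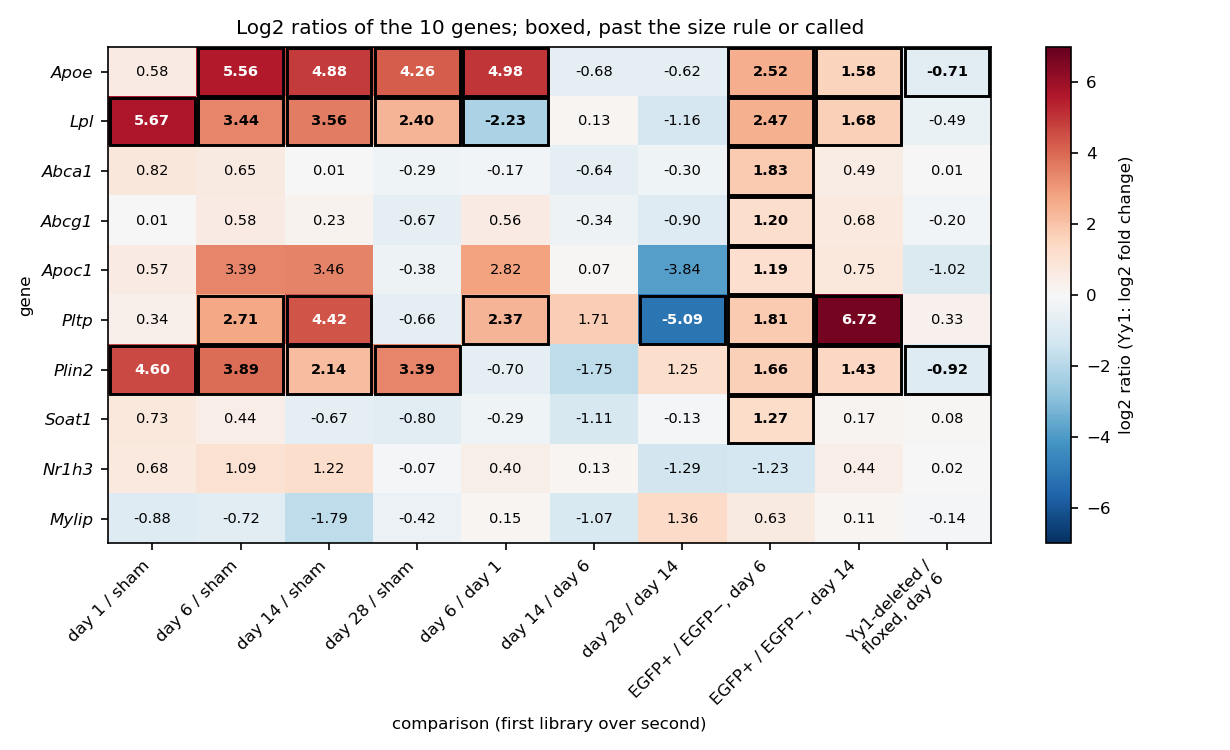
Log2 ratio of each of the 10 genes (rows) in each comparison (columns), written in each cell and coloured from blue (lower in the first library) to red (higher). Boxes mark values past the size rule or, in the last column, called by edgeR at an adjusted p under 0.05. Of the 9 members at the minimum between EGFP states on day 6, 8 are boxed, and in the Yy1 column Apoe (-0.71) and Plin2 (-0.92) are boxed.

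Markers of other cell types moved with most of these comparisons. Astrocytes make much of the brain's Apoe. The 9 astrocyte markers summed to 163 CPM after sham surgery and 86.9, 136, 80.1 and 107 CPM on days 1, 6, 14 and 28, and Slc1a3 made up most of it, 152 CPM in sham. Without that gene the list differed by marker. Slc1a2 stood at 1.69 CPM after sham surgery, 26.8 CPM on day 6 and 0.54 CPM on day 14, and Gja1 at 1.24, 9.52 and 20.8 CPM. Gfap stood at 0, 5.85 and 14.1 CPM, while Aqp4 stood at 5.44 and 2.39 CPM and had 0 counts on day 14. By the size rule 1 of 2 astrocyte markers at the minimum was higher on day 6 (Slc1a2) and 1 of 2 on day 14 (Gja1). The shares of all genes higher were 6.25% and 12.9%. On day 1 the 1 marker at the minimum, Slc1a3, was lower, at 30.3 against 152 CPM in sham, beside 2% of all genes. On day 28, Gfap, Aqp4 and Gja1 had 0 counts, and Slc1a2 was at 0.09 CPM. In EGFP+ and EGFP- cells of day 6 the sum was 78.2 and 121 CPM. Slc1a3, the 1 marker at the minimum, was past the rule downward there, at 44.9 and 110 CPM, beside 11.9% of all genes. Below the minimum the markers differed in direction. Slc1a2 stood at 17.2 and 3.40 CPM and Gfap at 4.40 and 1.34 CPM. Lower in EGFP+ cells were Aqp4, at 0 and 1.37 CPM, and Aldoc, at 0.08 and 1.49 CPM.

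The endothelial and mural markers summed to 220 CPM after sham surgery and 354, 2756, 4819 and 30.1 CPM on days 1, 6, 14 and 28. They were past the size rule upward for 8 of 8 at the minimum on days 6 and 14, when Apoe and Pltp were also higher. The 7 neutrophil markers summed to 42.8 CPM after sham surgery and 1960, 340.2, 11.1 and 2133 CPM on the same days. The 7 monocyte markers summed to 61.3 CPM after sham surgery and 1592, 1441, 2123 and 1915 CPM. Fn1 made up most of this in sham and on days 1, 6 and 14, at 45.2, 1142, 1361 and 2095 CPM. On day 14 only 1 monocyte marker, Fn1, was at the minimum. Plac8 stood at 19.9 CPM on that day, Vcan at 3.59, F13a1 at 2.88, Ccr2 and Ly6c2 at 0.92 and Chil3 at 0.11 CPM. On day 28 the neutrophil, monocyte and dendritic cell markers were past the rule upward for 4 of 4, 6 of 6 and 5 of 5 at the minimum, and the dendritic sum was 586 CPM against 16.9 CPM in sham. The 10 microglia markers summed to 35422 CPM after sham surgery and 9024, 18699, 10839 and 16928 CPM on days 1, 6, 14 and 28. By the size rule 6, 0, 4 and 1 of these 10 were lower than sham on those days, and 0 were higher. The shares of all genes lower were 2%, 0.0846%, 6.82% and 15.2%.

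Several lists also differed between reporter states. On day 6 the neutrophil, monocyte and dendritic cell sums were lower in EGFP+ cells, the last at 131 against 603 CPM. The 8 border-associated macrophage markers were higher there, at 3062 against 832 CPM, most of it Stab1, with Ms4a7 at 144 and 16.8 CPM and Pf4 at 25.6 and 0.99 CPM. On day 14 the EGFP+ library had the higher sums of neutrophil markers, 862 against 0.16 CPM, of monocyte markers, 541 against 94.1 CPM, of dendritic cell markers, 93.1 against 14.99 CPM, and of endothelial and mural markers, 392 against 30.7 CPM. The border-associated sum was 654 and 758 CPM on that day. The part of these cells in the wild-type and reporter results was not tested.

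The Yy1 comparison on day 6 was the one with replicates. Apoe and Plin2 fell in the Yy1-deleted libraries, by 0.71 and 0.92 on the log2 scale, while the exporters Abca1 and Abcg1, the esterifying enzyme Soat1 and Mylip were not called. Of the 10 members, all tested, 0 were called higher and 2 lower, against 1.55% and 1.05% of 12387 genes. The median log2 fold change was -0.17 over the members and -0.02 over all genes. The labels call the 3 libraries of a group biological replicates, and p-values here rest on the spread among these 6 samples.

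Apoe had levels of 3371, 3306 and 3565 CPM in floxed controls 1 to 3 and of 2365, 1872 and 2003 CPM in Yy1-deleted libraries 1 to 3. Every deleted library was below every control. Group means were 3414 ± 135 and 2079.8 ± 255 CPM (SD, n = 3), a log2 fold change of -0.71 (SE 0.11, 95% interval -0.94 to -0.49) with an adjusted p of 0.00114 in edgeR's quasi-likelihood test. It was called in 12 of 12 alternatives, with adjusted p from 7.89e-10 to 0.0192. Groups that did not overlap were found for 11.6% of genes downward and 9.47% upward, and among the members for Apoe, Plin2 and Mylip downward and 0 upward.

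Plin2 had levels of 154, 207 and 177 CPM in floxed controls and of 101, 74.5 and 109 CPM in Yy1-deleted libraries. Group means were 179 ± 26.4 and 94.9 ± 18.1 CPM (SD, n = 3), a log2 fold change of -0.92 (SE 0.20, 95% interval -1.33 to -0.50) with an adjusted p of 0.0164 in edgeR. The call was lost on leaving out any 1 floxed control, with edgeR adjusted p of 0.0628, 0.126 and 0.0625 without controls 1, 2 and 3.

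Lpl had levels of 183, 269.8 and 221 CPM in floxed controls and of 146, 139 and 195 CPM in Yy1-deleted libraries, groups that overlapped. Its log2 fold change was -0.49 (SE 0.19), with an adjusted p of 0.235 in edgeR, and it was called in 0 of 12 alternatives. Abca1 had levels of 1776, 1989 and 1794 CPM in floxed controls and of 1936, 1868 and 1789.9 CPM in Yy1-deleted libraries. Its interval on the log2 scale, -0.20 to 0.23, lies close to 0 on both sides. Abcg1 ran from 277 to 351 CPM in controls and from 263 to 293 CPM in Yy1-deleted libraries, with an interval of -0.51 to 0.11. Soat1 ran from 212 to 238 CPM and from 201 to 256 CPM, with an interval of -0.26 to 0.41. Mylip had levels of 330.3, 345 and 329.9 CPM in controls and of 319.9, 329.4 and 262 CPM in Yy1-deleted libraries. The groups did not overlap, but its log2 fold change of -0.14 had an adjusted p of 0.784 in edgeR.

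The low members varied widely between libraries of a group, and their intervals spanned 0. Apoc1 ran from 1.26 to 6.90 CPM in controls and from 0.20 to 3.24 CPM in Yy1-deleted libraries, with an interval of -4.00 to 1.97 on the log2 scale. Nr1h3 ran from 0.56 to 3.02 CPM and from 0 to 4.82 CPM, with an interval of -3.64 to 3.68. Pltp had levels of 9.12, 25.6 and 28.4 CPM in controls and of 3.73, 55.5 and 19.7 CPM in Yy1-deleted libraries, with an interval of -1.09 to 1.75. The spread of Pltp among the Yy1-deleted libraries was wider than the difference between the groups.

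**Figure D3:**
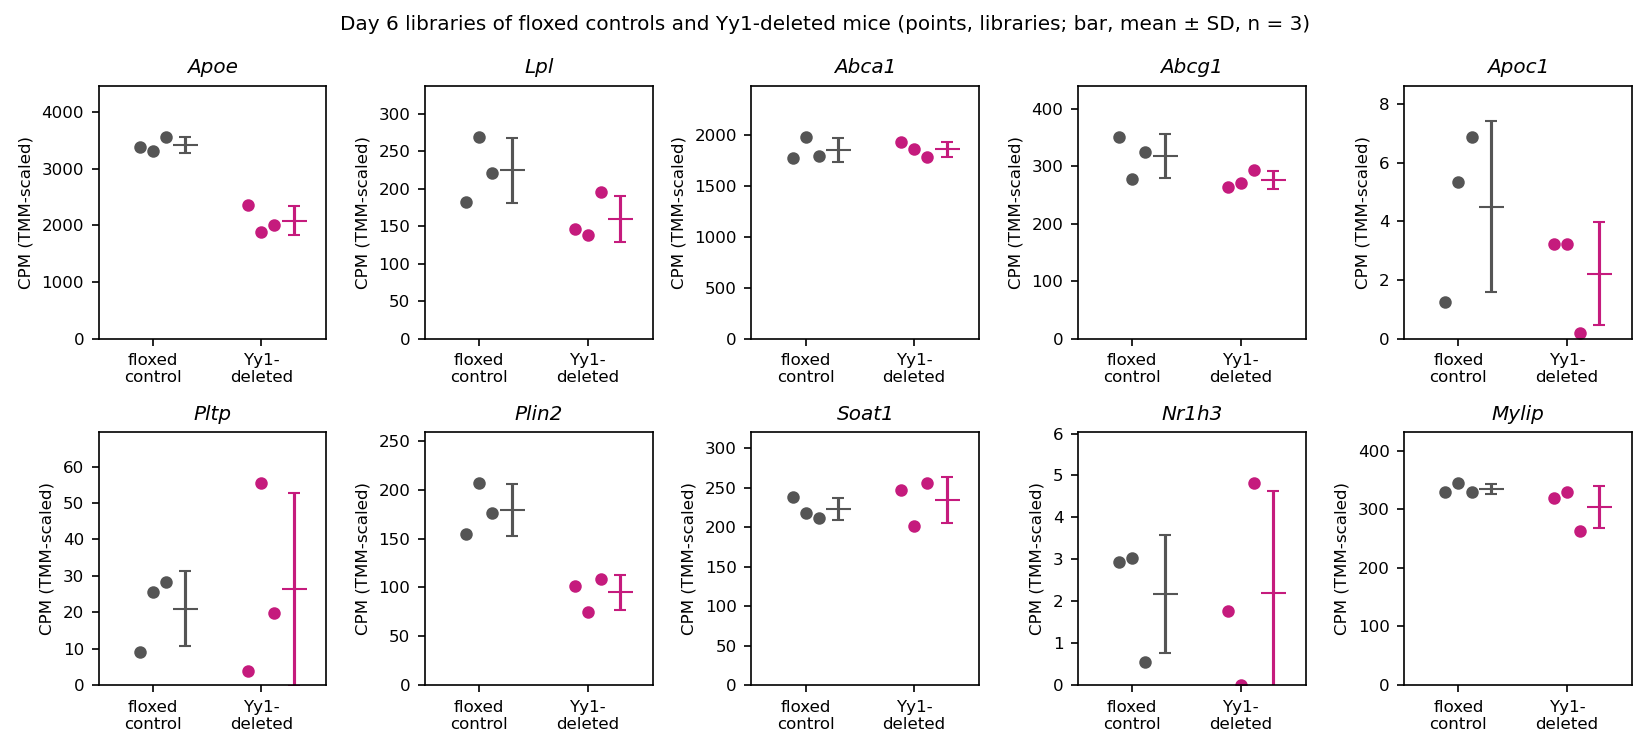
CPM of each of the 10 genes on the y axis in the 3 floxed control (grey) and 3 Yy1-deleted (magenta) libraries of day 6; points are libraries, and the bar beside them is the mean with its SD, which runs below the axis where the SD exceeds the mean. The Apoe points of the Yy1-deleted libraries (1872 to 2365 CPM) lie below the controls (3306 to 3565 CPM), and the Pltp and Nr1h3 points of both groups are interleaved.

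Other cell markers differed between the Yy1 groups as well. All 10 microglia markers rose, and their sum ran from 15314 to 16528 CPM in floxed controls and from 24489 to 26533 CPM in Yy1-deleted libraries. P2ry12 rose, with means of 1658 and 3837 CPM and a log2 fold change of 1.21, with an adjusted p of 6.25e-06 in edgeR. Of 6 border-associated macrophage markers tested, F13a1 and Stab1 fell, and the sum over 8 ran from 1066 to 1394 CPM in controls and from 559 to 780.4 CPM in Yy1-deleted libraries. Of 7 monocyte markers, Chil3 and F13a1 fell, with sums from 877 to 1271 CPM and from 616 to 740.1 CPM. Fn1 made up most of these sums, at 734 to 1089 CPM and 549 to 682 CPM, and was not called (adjusted p of 0.078 in edgeR). F13a1 was counted in both lists, and Stab1 made up most of the border-associated sums. Of all genes tested, 1.55% were called higher and 1.05% lower. Among astrocyte markers 0 of 5 were called, with sums from 87.5 to 118 CPM and from 77.0 to 123 CPM. Their part in the lower Apoe and Plin2 was not tested.

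The other genes of these pathways were read from lists. In the Yy1 comparison, of 11 lipoprotein receptor genes 10 were tested, and Trem2 rose while Cd36 fell. Trem2, a lipid-sensing receptor of microglia that binds apolipoprotein E particles, stood at 269 ± 31.0 and 431 ± 52.9 CPM, a log2 fold change of 0.68 with an adjusted p of 0.0184 in edgeR, called in 8 of 12 alternatives. Cd36, a scavenger receptor for oxidised lipoproteins and fatty acids, stood at 46.6 ± 11.2 and 3.60 ± 0.79 CPM, a log2 fold change of -3.69 with an adjusted p of 0.000154 in edgeR, called in 12 of 12. Of 24 lipid droplet and neutral lipid genes 15 were tested and Nceh1 fell. Nceh1, a hydrolase of neutral cholesterol esters, stood at 113 ± 13.5 and 60.1 ± 5.99 CPM, a log2 fold change of -0.91 with an adjusted p of 0.0253 in edgeR, called in 7 of 12 alternatives. Calls numbered 0 in either direction among 10 tested of 16 other liver X receptor targets, 11 of 13 nuclear receptors and co-regulators, 12 of 16 other efflux and carrier genes, 6 of 14 lipase cofactors and inhibitors, 10 of 11 lysosomal cholesterol and oxysterol genes, and 17 of 18 sterol synthesis genes. Of all 12387 genes tested, 1.55% were called higher and 1.05% lower. In lists this short, 0 calls lie close to those shares. The medians of the 8 lists ran from -0.36 to 0.17, beside -0.02 over all genes.

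In the wild-type libraries, the lists were counted by the size rule. Of all genes at the minimum, 5.59%, 6.25%, 12.9% and 11.1% were higher than sham on days 1, 6, 14 and 28. The shares lower than sham were 2%, 0.0846%, 6.82% and 15.2%. On day 1 against sham 4 of 10 lipoprotein receptor genes at the minimum were past the size rule upward and 0 downward, with Cd36 at 92.8 against 1.05 CPM and Vldlr at 26.2 against 1.42 CPM. The receptor list had 0 of 7 in either direction on day 6, 4 of 10 higher and 0 lower on day 14 (Vldlr at 27.0 CPM), and 1 of 7 higher and 1 lower on day 28. Other liver X receptor targets had 2 of 9 higher on day 1, Scd1 and Tgm2, and 1 of 9 higher on day 6, Cd5l, at 47.2 against 0.47 CPM. These targets had 0 of 8 in either direction on day 14, and 0 of 8 higher and 2 lower on day 28. The 2 were Fasn, at 4.56 against 42.5 CPM, and Tgm2, at 14.5 against 64.7 CPM. Ch25h, which makes the liver X receptor ligand 25-hydroxycholesterol, stood at 1.80 CPM after sham surgery and 77.9, 84.4, 144 and 6.49 CPM on days 1, 6, 14 and 28. Apod, which encodes a lipid carrier of the lipocalin family, stood at 2.06, 30.6, 47.8, 151 and 0.18 CPM at the same points. Abca9, a transporter gene, stood at 1331 CPM after sham surgery and 125 and 519.8 CPM on days 1 and 6. Sterol synthesis genes had 0 of 7, 0 of 5 and 0 of 5 past the rule on days 1, 6 and 14. On day 28 they had 2 of 7 higher and 0 lower. Sqle stood at 55.0 against 4.87 CPM and Fdft1 at 37.1 against 8.53 CPM in sham. The median of those 7 was -0.28, and the whole list summed to 224 against 273 CPM. Below the minimum, Cyp51 stood at 0.09 against 16.6 CPM, Dhcr7 at 1.58 against 17.0 CPM and Sc5d at 0 against 16.6 CPM. Idi1, also below it, went the other way, at 15.6 against 4.89 CPM.

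Between EGFP states on day 6 the lysosomal cholesterol and oxysterol list had 5 of 9 genes higher and 0 lower. Of all genes at the minimum on that day, 7.53% were higher and 11.9% lower. Lipa, the lysosomal acid lipase that frees cholesterol from esters, stood at 1068 CPM in EGFP+ and 252 CPM in EGFP- cells, and Npc1, which moves cholesterol out of lysosomes, at 631 and 227 CPM. The receptor list had 3 of 9 higher, Cd36, Lrp1 and Trem2, and 2 lower. Nceh1 stood at 507 and 129.6 CPM. On day 14 the lysosomal list had 0 of 9 higher and 1 lower, Lamp1, at 92.3 against 188 CPM, and Nceh1 stood at 84.0 against 26.1 CPM. Nceh1 was past the rule upward on both days. Its list, the lipid droplet and neutral lipid genes, had 2 of 12 higher and 2 lower on day 6. On day 14 that list had 3 of 13 higher and 1 lower. Other efflux and carrier genes had 0 of 7 higher and 2 lower on day 6, and 1 of 7 higher and 0 lower on day 14. Of all genes at the minimum on day 14, 11.2% were higher and 10.9% lower.

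The genes around Apoe on chromosome 7 were read beside it, since Apoe, Apoc1, Apoc4 and Apoc2 form a cluster that is known to share macrophage enhancers. Apoc2 and Apoc4, apolipoprotein genes whose starts lie 21.2 and 17.7 kb away, stood at most at 1.04 and 4.35 CPM in the wild-type and EGFP libraries. Tomm40, a mitochondrial import gene that starts 16.2 kb away, stood at 14.1 CPM after sham surgery and 26.7 and 8.96 CPM on days 1 and 6. Clptm1, 34.2 kb away, stood at 184, 198 and 164 CPM, and Nectin2 (listed as Pvrl2), 51.3 kb away, at 18.0, 14.2 and 22.6 CPM. Bcam, an adhesion molecule gene 71.8 kb away, stood at 6.90, 29.2, 79.0 and 140.5 CPM in sham and on days 1, 6 and 14, and at 0 counts on day 28. Relb and Bcl3, genes of the NF-kappaB family, stood at 18.7 and 2.02 CPM in sham and 26.6 and 7.75 CPM on day 6. On day 28 they stood at 120.6 and 30.5 CPM, and both were past the size rule with Apoe. Bcl3 also stood at 20.8 CPM on day 1 and 20.7 CPM on day 14. It was the 1 locus gene past the rule upward on day 1, when Apoe was not. On day 14 Apoe, Bcam and Bcl3 were past it. Cblc stood at 0.04 CPM or 0 in these libraries. In the Yy1 comparison 8 of the 11 locus genes were tested: Apoe fell and Clptm1 rose, from 128 ± 6.71 to 212 ± 45.3 CPM (SD, n = 3), a log2 fold change of 0.73 with an adjusted p of 0.0459 in edgeR, called in 6 of 12 alternatives.

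**Figure D4:**
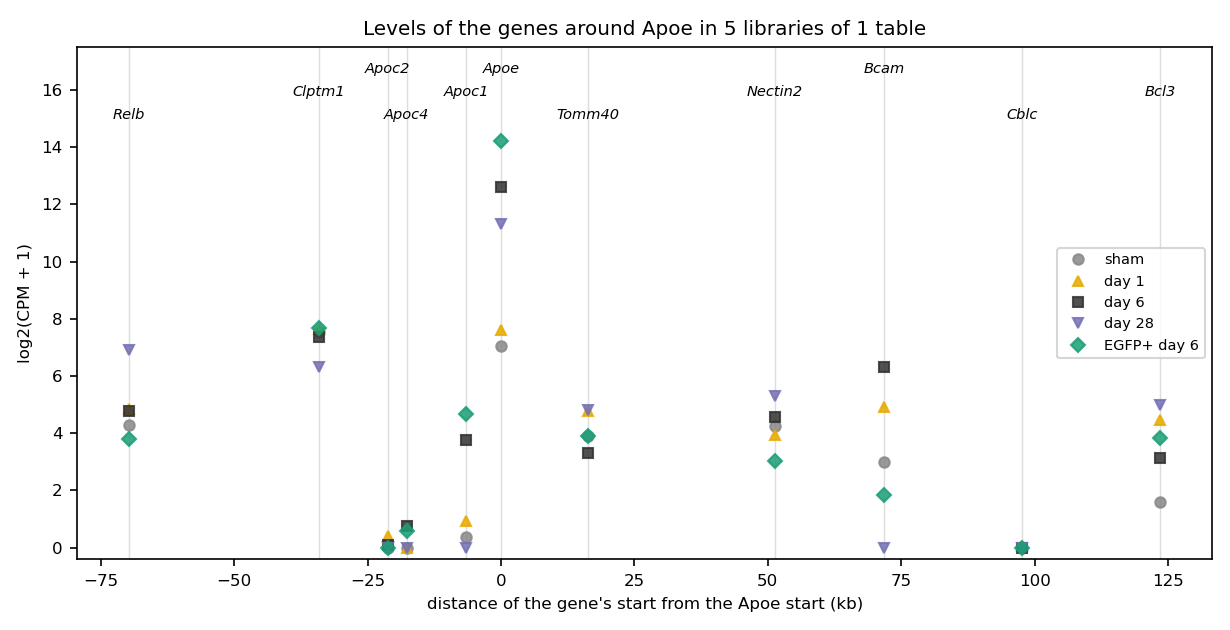
Level, as log2(CPM + 1) on the y axis, of 11 genes plotted by the distance of their start from that of Apoe, in kb on the x axis, in 5 libraries of the time course table. Apoe is lowest in the sham library (130.3 CPM) and highest in the EGFP+ library of day 6 (18823 CPM), Clptm1 lies between 77.8 and 202 CPM in these 5 libraries, and Apoc2 and Cblc lie near 0.

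Over the 7 libraries of the time course table, the genes whose log2(CPM + 1) followed Apoe most closely among 9379 genes were Slc44a1 (Pearson r = 0.945), Axl (0.932), Hebp1 (0.931), Mki67 (0.930) and Gnas (0.928). Axl, a receptor for dying cells, stood at 10.7 CPM after sham surgery and 44.3 and 210 CPM on days 1 and 6, and Mki67, a marker of dividing cells, at 18.7, 43.6 and 296 CPM. The genes closest to Lpl were Myo1e (0.974), Spp1 (0.965), Sntb2 (0.930), Fam129b (0.922) and Rai14 (0.919). Spp1, the secreted protein osteopontin, stood at 7.12 CPM after sham surgery and 5915 and 745 CPM on days 1 and 6. Among the members, r with Apoe was 0.78 for Apoc1, 0.64 for Pltp, 0.60 for Plin2, 0.31 for Lpl and -0.34 for Mylip, and r with Lpl was 0.76 for Plin2 and 0.67 for Abca1. These coefficients describe 7 single libraries that share a table and its scaling.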

How the data were processed

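The authors deposited 3 gene tables. The time course table (with EGFP cells of day 6) and the table of EGFP cells of day 14 held whole read counts, as deposited. The Yy1 table, as deposited by the authors without normalization, was taken to hold expected counts, since 3.55% to 4.75% of its values per library were not whole. Those values were rounded before tests. The submitters' processing notes name STAR, featureCounts, edgeR, mm10 and GRCm38, with no roles. The versions, the annotation and the strand setting were not given in the sources used here. Per the labels' protocols, libraries were made with an Ovation SoLo kit from cells also stained for CD31. Groups came from the sample labels, and 0 columns were left unused.

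The Yy1 comparison used edgeR 4.0.16 in R 4.3.3 (filterByExpr, TMM, two-sided quasi-likelihood F-test, Benjamini-Hochberg over all genes tested, threshold 0.05). Each standard error is the absolute log2 fold change over the root of F. The other comparisons had 1 library per group, hence no p-value, and used log2 ratios of TMM-scaled CPM plus 1 with exact binomial counting intervals (Clopper-Pearson, 95%). A count of 0 was read as at most 3 counts. Even numbers made up 68.7% to 90.9% of the counts between 1 and 20 where counts were whole, and 45.4% to 49.5% in the Yy1 table. If both mates of a fragment were counted, the intervals are too narrow and the limits given for 0 counts are too low. The procedures were tested on simulated data in which every gene had the same spread, so the test does not give the error rate of the calls.

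Alternatives were RLE scaling, library totals, other pseudocounts (0.25 and 5 CPM) and minimums (5 and 50 CPM), no filter, DESeq2 1.42.0, limma-voom (limma 3.58.1), a replicate block, and leaving out each Yy1 library. Gene positions and exon lengths are from GENCODE M21 (GRCm38).

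The members and lists were chosen with earlier results of these data known. Named genes were the 10 members, the genes of the Apoe locus, up to 4 genes per pathway list with the lowest adjusted p or the largest ratio past the rule, the 5 genes closest to Apoe and to Lpl, and Yy1, Igf1 and P2ry12. Marker genes of other cell types and Nr1h2 were named in addition. Some genes of the lists are counted but not reported here by name.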

Additional observations from a re-analysis of the deposited data

How the results depend on the processing

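Apoe kept its direction and its call in all 12 alternatives of the Yy1 comparison. The genes called higher, 192 in all, numbered 127 with library totals, 309 with no filter on low counts, 380 with DESeq2, 289 with limma-voom and 58 to 166 on leaving out 1 library; without floxed control 1 there were 58 and without control 2 there were 98. The genes called lower, 130 in all, numbered 266 with no filter, 366 with DESeq2 and 39 to 151 on leaving out 1 library, with 39, 67 and 78 without floxed controls 1, 2 and 3. Members called lower numbered 1 to 2 on leaving out 1 library, with 1 (Apoe) without any 1 floxed control. Members that were never called changed sign in 4 cases. Abca1 stood at -0.0935 with library totals and from -0.0182 to 0.0674 with 1 library left out (also below 0 at -0.0144 and -0.00396). Soat1 stood at -0.0281 with totals. Pltp stood at -0.13 with limma-voom and from -0.84 to 0.84 with 1 library left out, among them -0.0257. Nr1h3 stood at -0.0944 with totals, -1.41 with limma-voom and from -1.29 to 0.60 with 1 library left out, among them -0.43.

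The replicate block left 219 genes higher, 194 lower and the members' calls at 0 higher and 2 lower, with Pltp at -0.22 and Nr1h3 at -0.89. Nothing in the labels ties equal numbers to a shared animal or day, and the deviations of same-numbered libraries correlated at -0.00765, -0.0479 and -0.0154, so the pairing was not used. With a minimum of 5 CPM, 2 members were lower between days 14 and 28, and 1 member (Nr1h3) was lower in EGFP+ cells of day 6. With wild-type day 6 in place of EGFP- cells, 5 members were higher. Over both days, DESeq2 called 18 genes higher and 13 lower, against 0 in edgeR. RLE scaling moved the median of all genes by 0.17 on day 14 and 0.12 on day 28 against sham, and by 0.13 between days 6 and 14. Library totals moved it by 0.11 on day 14 against sham, by -0.12 between days 14 and 28 and by -0.10 between EGFP states on day 14. The cause of these differences was not tested. The values of Nr1h3 rested on 0 to 325 counts per library and those of Apoc1 on 0 to 640. Within the Yy1-deleted group they ran from 0 to 49 and from 2 to 40 counts.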
